A study of Macaca mulatta with 12 samples.

Results

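Glucose is the main fuel of the brain, and the enzymes that break it down are the subject here. The group holds 43 genes chosen by name: 2 glucose transporters, 15 genes of the glycolytic steps, 3 of lactate and monocarboxylates, 9 of pyruvate entry into the mitochondrion and its control, 11 of the citric acid cycle and 3 of the malate-aspartate shuttle. A human Affymetrix array had probe sets naming 41 of them alone, 69 probe sets in all. The other two, SLC16A1, which carries lactate and pyruvate across the plasma membrane, and FH, which turns fumarate into malate, were not analysed here. Of the 41 genes, 38 had a probe set bright enough to be tested, with 60 such probe sets among 11105 tested in all. SLC2A3, HK2 and PDK1 lay below that filter (a mean log2 intensity no lower than that of the median probe set, equal to an intensity of 483.4).

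The RNA came from the lateral geniculate nucleus of rhesus macaques that had been deprived of vision through 1 eye. This thalamic nucleus relays retinal signals to the visual cortex in 6 layers, each fed by a single eye. The 6 deprived samples were layers 2, 3 and 5 of the ipsilateral hemisphere and layers 1, 4 and 6 of the contralateral hemisphere, and the 6 non-deprived samples were layers 1, 4 and 6 ipsilaterally and layers 2, 3 and 5 contralaterally. Layers 1 and 2 are magnocellular (4 samples) and layers 3 to 6 parvocellular (8 samples), so each layer and hemisphere gave 1 array, 12 in all. Neither the age of the animals, the means and length of deprivation, nor the number of animals was given in the sources used here, and which samples shared an animal is unknown. The p-values therefore measure the spread between these samples, which may be partly technical.

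In glycolysis, glucose is phosphorylated by hexokinase, split by aldolase and carried in steps to pyruvate, with a small yield of ATP. Pyruvate is either reduced to lactate or taken into mitochondria, where the pyruvate dehydrogenase complex turns it into acetyl-CoA for the citric acid cycle, whose electrons drive the respiratory chain. Electrons of cytosolic NADH reach the mitochondrion through the malate-aspartate shuttle, which is prominent in neurons. In the brain, astrocytes are known for strong glycolysis and lactate release, and neurons for strong oxidative use of pyruvate and lactate.

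The arrays had been scaled to equal trimmed means before deposit. Their median intensity averaged 586 ± 83.4 ipsilaterally and 468 ± 39.7 contralaterally (SD, n = 6 each). The 3'/5' ratio of the GAPDH control probe sets, a sign of RNA quality that goes up as RNA breaks down, averaged 5.51 ± 3.70 in deprived and 3.83 ± 1.30 in non-deprived samples. It averaged 6.14 ± 3.37 in ipsilateral and 3.20 ± 0.72 in contralateral samples. The deprived layer 2 (9.38) and the deprived layer 5 (11.0), both ipsilateral, had the highest GAPDH ratios, and the deprived layer 2 also correlated least with the other arrays (mean r = 0.868). The ACTB 3'/5' ratio averaged 31.5 ± 16.9 in deprived and 33.7 ± 13.5 in non-deprived samples. By hemisphere the ACTB ratio averaged 39.7 ± 17.0 in ipsilateral and 25.5 ± 7.90 in contralateral samples. Of the kept probe sets of members, 6 are of a type (PFKL, ALDOA, TPI1, GAPDH, LDHB and IDH3B) that can bind other, similar transcripts, and several of these genes have near-identical processed copies, so their values are uncertain in that respect.

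No member passed the threshold for deprivation, while 32 of the 38 measured members had a lower estimate in deprived than in non-deprived samples. The genes of smallest p were ALDOA, IDH3B, GPI, GAPDH and PKM, all with lower estimates, between a log2 change of -0.77 and -0.45. A change here is the deprived minus the non-deprived log2 intensity with its standard error, from a limma fit that also held cell class and hemisphere, and a level is a scaled intensity. Over all 11105 probe sets, 0.0630% passed at an adjusted p under 0.05, so the lack of member calls stands beside few calls anywhere. Without adjustment, 11 of the 38 members had p under 0.05, all 11 lower. By probe set, 17 of 60 were lower and 0 higher at that level, against 6.07% lower and 5.93% higher over all probe sets.

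The lower estimates were spread over most of the roles. The median log2 change was -0.23 over the 38 members and 0.02 over all 7285 genes tested, of which 46.9% had a lower estimate. Of the glycolytic genes 12 of 14 were lower, with a median of -0.34. Of the citric acid cycle genes 8 of 10 were lower, with a median of -0.16. Of the pyruvate entry genes 6 of 8 were lower, with a median of -0.12, as were all 3 malate-aspartate shuttle genes, with a median of -0.35.

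**Figure D1:**
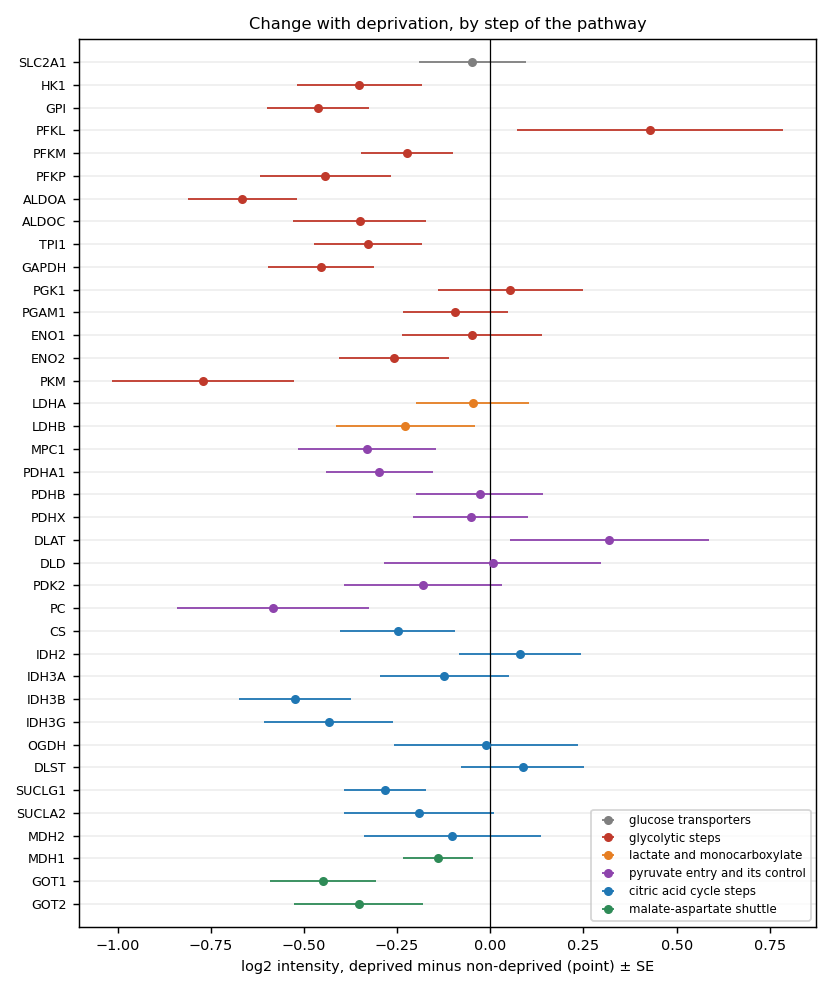
Log2 change in deprived against non-deprived samples (horizontal axis) for the 38 measured members, with colours for the roles and error bars of 1 standard error. Of the points, 32 lie below 0 and 6 above, and none passed the threshold.

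ALDOA, the aldolase that splits fructose bisphosphate in most tissues, had the smallest p. Its level ranged from 20446 to 50641 in deprived samples, with a median of 40778, and from 48144 to 74861 in non-deprived samples, with a median of 54856. Among deprived samples, only layers 4 and 6 reached into the non-deprived range. The means were 38254 ± 12114 in deprived and 58450 ± 10185 in non-deprived samples (SD, n = 6 each), a log2 change of -0.67 ± 0.15 (adjusted p = 0.101), lower in 5 of 6 layers. The other ALDOA probe set changed by -0.57 ± 0.15 (adjusted p = 0.16). By layer, 1 to 6, the log2 difference of the first probe set was -0.59, -1.40, -1.42, -0.07, -0.58 and 0.07, with layers 4 and 6 near 0. A layer's difference also holds the hemisphere change, added in layers 2, 3 and 5 and subtracted in layers 1, 4 and 6, so its spread over layers is not a spread of the deprivation change alone.

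GAPDH, which oxidises glyceraldehyde phosphate, ranged from 34756 to 70115 in deprived samples, with a median of 58096, and from 54029 to 85619 in non-deprived samples, with a median of 78956. Apart from the non-deprived layer 6, every non-deprived sample lay above every deprived one. The means were 56232 ± 11807 and 76171 ± 11407 in deprived and non-deprived samples (SD, n = 6 each). The log2 change was -0.45 ± 0.14 (adjusted p = 0.214), lower in 5 of 6 layers. The other two GAPDH probe sets changed by -0.46 and -0.41. The GAPDH 3'/5' ratio given above comes from control probe sets of the same transcript.

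GPI, which turns glucose phosphate into fructose phosphate, ranged from 14543 to 38526 in deprived samples (median 25336) and from 29031 to 42551 in non-deprived samples (median 31737). The deprived layers 4 and 6 lay within the non-deprived range and the other deprived samples below it. Its log2 change was -0.46 ± 0.14 (adjusted p = 0.197), lower in 4 of 6 layers.

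PKM, pyruvate kinase, which makes pyruvate and ATP, ranged from 765 to 1909 in deprived samples (median 1274) and from 1246 to 3592 in non-deprived samples (median 2195). The groups overlapped, since the non-deprived layers 3 and 5 lay among the deprived samples. Its log2 change was -0.77 ± 0.24 (adjusted p = 0.222), lower in 4 of 6 layers. The other PKM probe set changed by -0.10 ± 0.25, so the larger change was seen with 1 of its 2 probe sets.

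IDH3B, a subunit of the NAD-linked isocitrate dehydrogenase of the cycle, ranged from 5886 to 12252 in deprived samples (median 9123) and from 8922 to 17848 in non-deprived samples (median 11779). Its log2 change was -0.52 ± 0.15 (adjusted p = 0.19), lower in 3 of 6 layers. By layer, 1 to 6, the differences were 0.08, -1.02, -1.39, 0.11, -0.98 and 0.06. This split is that of the hemisphere change of IDH3B, -0.61. Within ipsilateral samples alone the deprivation change was -0.56 and within contralateral samples alone -0.49, and the difference between hemispheres was -0.07 ± 0.31 (adjusted p = 0.984). The other two IDH3B probe sets changed by -0.42 and -0.40.

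**Figure D2:**
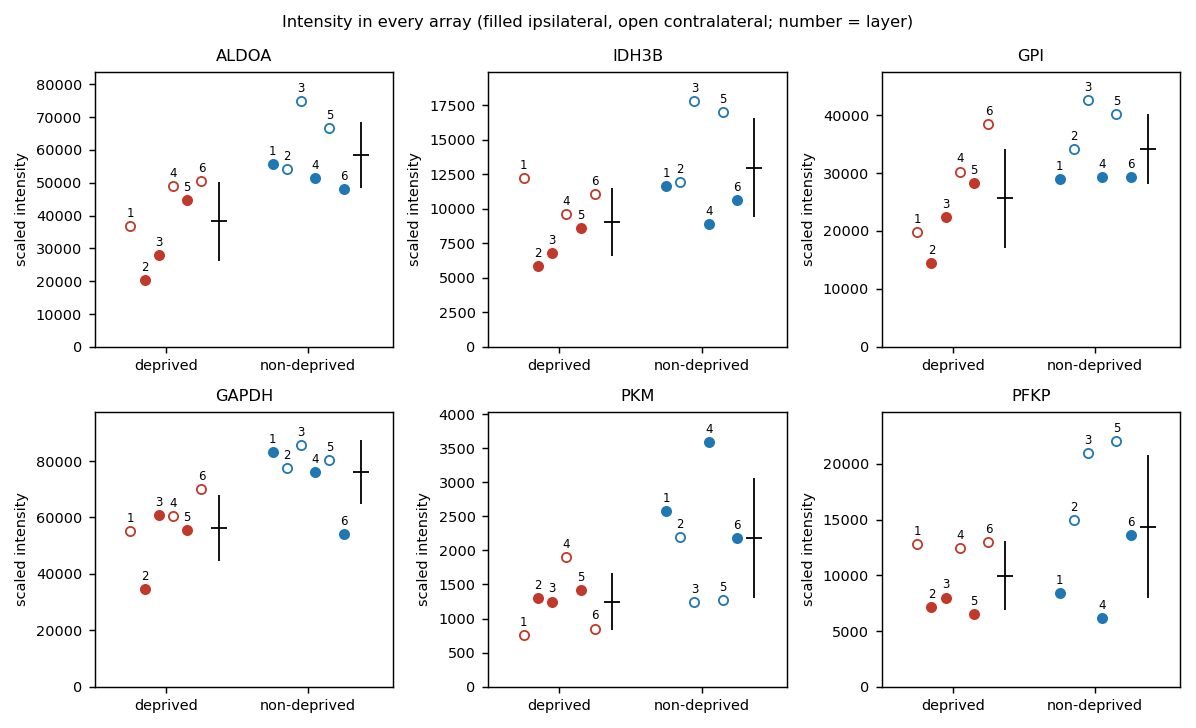
Scaled intensity (vertical axis) of ALDOA, IDH3B, GPI, GAPDH, PKM and PFKP in each deprived and each non-deprived sample, with filled points for ipsilateral and open points for contralateral samples, the layer number beside each point, and a bar at the mean ± SD (n = 6). For PFKP the open points stand above most filled ones in both groups, and for GAPDH the non-deprived layer 6 stands apart.

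The other members of smaller p were also lower. GOT1, the cytosolic transaminase of the malate-aspartate shuttle, averaged 12340 ± 3403 in deprived and 16438 ± 2626 in non-deprived samples, a log2 change of -0.45 ± 0.14 (adjusted p = 0.222). SUCLG1, a subunit of succinyl-CoA ligase, averaged 31254 ± 4095 in deprived and 37934 ± 4147 in non-deprived samples, a log2 change of -0.28 ± 0.11 (adjusted p = 0.33), lower in 5 of 6 layers. PFKP, the platelet form of phosphofructokinase, changed by -0.44 and TPI1, triose phosphate isomerase, by -0.33, with -0.58 in its other probe set. PC, which makes oxaloacetate from pyruvate mainly in astrocytes of the brain, changed by -0.58 ± 0.26 (adjusted p = 0.386). MDH1, the cytosolic malate dehydrogenase, was the most even member over the arrays, with a range of 0.32 on the log2 scale and a change of -0.14 ± 0.09.

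Members within a step did not all share a sign. The phosphofructokinases, which set the pace of glycolysis, had changes of 0.43 ± 0.36 for PFKL, -0.22 ± 0.12 for PFKM and -0.44 ± 0.18 for PFKP, and none passed. PGK1, phosphoglycerate kinase, changed by 0.05 and its other probe sets by -0.27 to 0.47. ENO1, the widely expressed enolase, changed by -0.05 and ENO2, the neuronal form, by -0.26. LDHA and LDHB, the lactate dehydrogenase subunits, changed by -0.05 and -0.23. SLC2A1, the glucose transporter of the blood-brain barrier, changed by -0.05, and HK1, the main brain hexokinase, by -0.35.

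Around pyruvate, 3 of 5 subunits of the pyruvate dehydrogenase complex were lower, with a median log2 change of -0.03. PDHA1 changed by -0.30, PDHB by -0.03, PDHX by -0.05, DLD by 0.01 and DLAT by 0.32. MPC1, a subunit of the mitochondrial pyruvate carrier, changed by -0.33, and PDK2, a kinase that switches the complex off, by -0.18. In the cycle the 3 IDH3 subunits were all lower, with a median of -0.43, and CS, citrate synthase, changed by -0.25. OGDH and DLST, subunits of the oxoglutarate dehydrogenase complex, changed by -0.01 and 0.09. Of the 17 members with several tested probe sets, 13 had the same sign in all of them and DLAT, ENO1, PDHB and PGK1 did not.

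The deprived minus non-deprived difference varied by layer. For the 14 glycolytic genes a score was formed, the average deviation of their log2 intensity on an array from each gene's own mean over the 12 arrays. It averaged -0.14 ± 0.20 in deprived and 0.14 ± 0.15 in non-deprived samples (SD, n = 6 each). Deprived minus non-deprived, layers 1 to 6, it differed by -0.18, -0.75, -0.38, 0.04, -0.49 and 0.06. The layers 2, 3 and 5, whose deprived sample was ipsilateral, had the most negative differences, and ipsilateral samples also had the lower score, -0.13 ± 0.20, against 0.13 ± 0.17 in contralateral samples (SD, n = 6 each).

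The citric acid cycle score averaged -0.09 ± 0.14 in deprived and 0.09 ± 0.14 in non-deprived samples, and its layer differences were -0.25, -0.33, -0.33, 0.24, -0.29 and -0.09. The glycolytic score minus the cycle score averaged -0.05 ± 0.13 in deprived and 0.05 ± 0.16 in non-deprived samples. These SDs also hold the cell class and hemisphere shifts, and with those and deprivation fitted the residual SD was 0.107. The layer differences, which also hold the hemisphere change, ran from -0.42 in layer 2 to 0.15 in layer 6, with 4 of 6 below 0. Deprived and non-deprived samples overlapped in this difference of scores, and whether the 2 groups of steps separate was not tested.

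**Figure D3:**
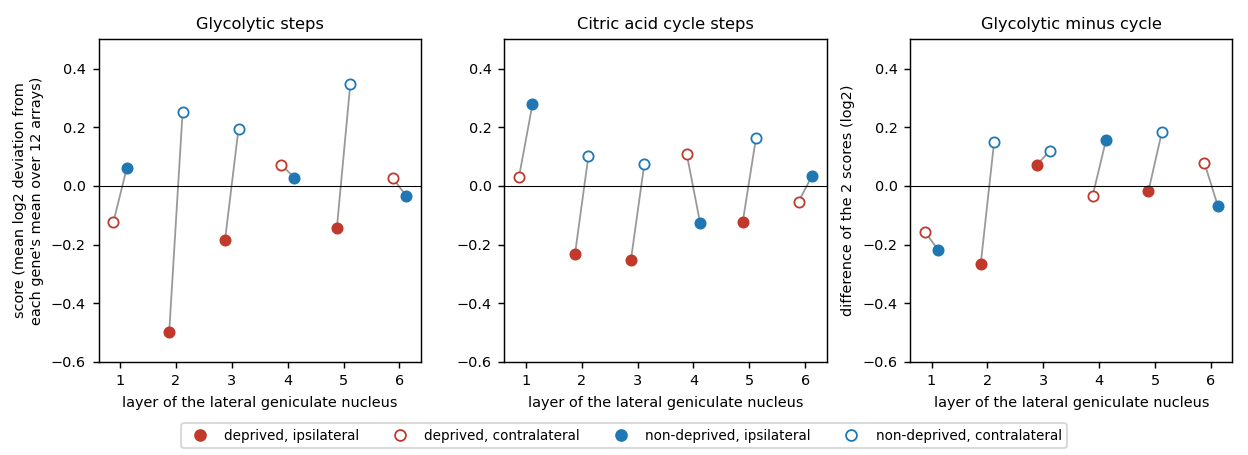
Scores (mean log2 deviation, vertical axis) of the glycolytic steps, the citric acid cycle steps and their difference, by layer, for deprived (red) and non-deprived (blue) samples, filled where ipsilateral and joined within a layer. The deprived layer 2 has the lowest glycolytic score, -0.50, and layers 4 and 6 show deprived and non-deprived points close together for glycolysis.

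In layers 2, 3 and 5, 32 of 38 members were lower in the deprived (ipsilateral) sample, with a median log2 difference of -0.44, beside 0.11 over all genes. In layers 1, 4 and 6, 22 of 38 were lower in the deprived (contralateral) sample, with a median of -0.05, beside -0.07 over all genes. The contrast between these sets restates the hemisphere change given further on, which enters them with opposite signs, and does not measure whether the deprivation change differs. PFKP, for one, had -1.40 in layers 2, 3 and 5 and 0.52 in layers 1, 4 and 6, while its deprivation change differed between hemispheres by 0.27 ± 0.35 (adjusted p = 0.911). That difference between hemispheres is the same contrast as the level of layers 2, 3 and 5 against that of layers 1, 4 and 6, over both hemispheres. It is thus also that of the side of the input eye, and the design does not separate these. When deprivation was allowed to differ between hemispheres, with hemisphere itself in the fit, no member passed (0 of 60 probe sets, 0% over all probe sets, 6.57% unadjusted), and by limma 2 member probe sets, both lower, had an unadjusted p under 0.05, against 3.60% lower and 2.97% higher over all probe sets.

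The glycolytic genes had a median log2 difference of -0.59 in magnocellular and -0.23 in parvocellular layers, with 12 and 11 of 14 lower. GAPDH differed by -0.88 in magnocellular and -0.24 in parvocellular layers, GPI by -0.89 and -0.25, and ENO1 by -0.58 and 0.22. PC differed by -1.46 in magnocellular and -0.14 in parvocellular layers, and its interaction had the smallest p (-1.32 ± 0.45, adjusted p = 0.433). No member passed the interaction of deprivation with cell class, nor did any probe set (0%, 8.73% unadjusted). At an unadjusted p under 0.05, limma gave 5 members, all more negative in magnocellular layers: PC, GPI, GAPDH, ENO1 and PDK2. By probe set, 8 of 60 were more negative and 1 less so, against 6.03% and 2.69% over all probe sets. The magnocellular estimate rests on 4 arrays, among them the deprived layer 2.

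Several other values moved together with the member estimates. Without ENO2, which is also a member, all 10 measured neuron markers were lower in deprived samples, with a median log2 change of -0.27, and none of these passed. Their summed level over 11 markers with ENO2 ranged from 462600 to 570100 in deprived and from 564000 to 709700 in non-deprived samples. The 13 oligodendrocyte markers were all higher, with a median of 0.38, and their summed level ranged from 113900 to 207200 in deprived and from 88000 to 144000 in non-deprived samples. Of 11 astrocyte markers 10 were higher, with a median of 0.15. All 6 measured microglia markers were higher (median 0.23), as were 8 of 9 endothelial and mural markers (median 0.39). Summed levels of these lists also held markers below the filter. Over 13 astrocyte markers the sum ranged from 131800 to 194000 in deprived and from 110800 to 164600 in non-deprived samples. Over 10 microglia markers it ranged from 10070 to 20380 in deprived and from 10100 to 12960 in non-deprived samples. Over 11 endothelial and mural markers it ranged from 13750 to 20760 in deprived and from 11410 to 15370 in non-deprived samples.

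Of 6 relay neuron markers 4 were lower, with a median of -0.18. Over 9 relay neuron markers, counting those below the filter, the summed level ranged from 99880 to 117800 in deprived and from 103300 to 112900 in non-deprived samples. Of 4 interneuron markers 3 were higher, with a median log2 change of 0.37, while PVALB was lower, by -0.51. The 2 measured blood markers were higher, with a median of 0.24. No marker of these lists was below the intensity floor on all arrays, and of the relay markers LHX2, PRKCD and GBX2 lay below the filter. In bulk RNA, fewer cells of a type and less RNA per cell cannot be told apart. The part of cell makeup in the member values was not tested.

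Brightness also went with the direction. Of the 38 members, 29 were among the 1822 genes of highest mean intensity, and there 62.7% of all genes were lower, with a median log2 change of -0.07, beside 27 of the 29 members with a median of -0.25. Without the 2 arrays of highest GAPDH ratio, 28 of 38 members were lower, with a median of -0.17 (all genes 0.000545), and with that ratio as a covariate, 30 of 38, with a median of -0.18. Quantile normalization gave 27 of 38, with a median of -0.15, and centring on the median gave 36 of 38, with -0.36, when the median of all genes moved to -0.11.

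**Figure D4:**
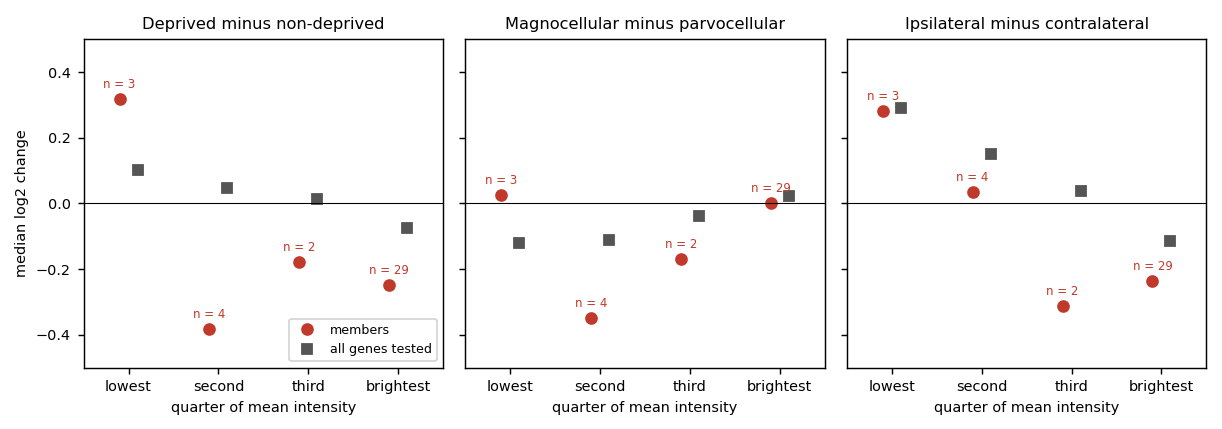
Median log2 change (vertical axis) of all genes tested (squares) and of the members (circles, with their number) in 4 bands of mean intensity from lowest to brightest, for the 3 comparisons. In the brightest band, with 29 of the 38 members, the deprivation medians are -0.25 for the members and -0.07 for all genes.

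For cell class no member passed (0 of 60 probe sets, 0.720% over all probe sets). By limma, 6 of 60 member probe sets were higher and 5 lower in magnocellular layers at an unadjusted p under 0.05, against 5.24% and 9.35% over all probe sets. The change here is magnocellular minus parvocellular. The members split about evenly, with 20 of 38 lower and a median log2 change of -0.02, beside 57.6% lower and -0.06 over all genes. Of the glycolytic genes 11 of 14 were lower, with a median of -0.05, which became 6 of 14 and 0.03 when arrays were centred on the median. By their kept probe sets the 5 measured subunits of the pyruvate dehydrogenase complex were all higher, with a median of 0.25. The other PDHB probe set changed by -0.01 and the other PDHA1 probe set by 0.01. The 10 cycle genes split into 5 and 5.

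PDK2, which holds pyruvate dehydrogenase inactive, had levels of 782, 444, 941 and 1068 in the magnocellular samples (deprived layers 1 and 2, then non-deprived layers 1 and 2), against 1052 to 1624 with a median of 1317 in parvocellular samples. Among magnocellular samples the non-deprived layer 2 alone reached into the parvocellular range. Its log2 change was -0.77 ± 0.22 (adjusted p = 0.138), but its other probe set changed by 0.23 ± 0.38.

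OGDH, the first subunit of oxoglutarate dehydrogenase, had levels of 370, 373, 856 and 410 in magnocellular samples, in the same order, against 642 to 1142 with a median of 777 in parvocellular samples. The non-deprived layer 1 lay within the parvocellular range and the other three below it. The log2 change was -0.75 ± 0.26 (adjusted p = 0.21).

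MDH2, the malate dehydrogenase of the cycle, had levels of 28276, 17557, 31950 and 31191 in magnocellular samples, against 10240 to 33713 with a median of 13238 in parvocellular samples. Only the deprived layer 4 and the non-deprived layer 5 among the parvocellular samples exceeded the lowest magnocellular one. The log2 change was 0.81 ± 0.25 (adjusted p = 0.158), and that of its other probe set -0.38 ± 0.23, of opposite sign.

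DLD, a subunit shared by the pyruvate and oxoglutarate dehydrogenase complexes, had levels of 12948, 7436, 3979 and 13913 in magnocellular samples, against 1934 to 7695 with a median of 4768 in parvocellular samples. The log2 change was 0.85 ± 0.31 (adjusted p = 0.228), with the deprived layer 2 and the non-deprived layer 1 inside the parvocellular range. GPI had levels of 19775, 14543, 29031 and 34152 in magnocellular samples, against 22426 to 42551 with a median of 29797 in parvocellular samples. It changed by -0.47 ± 0.15 (adjusted p = 0.157).

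PC changed by -0.68, MPC1 by 0.47, SUCLA2, a subunit of succinyl-CoA ligase, by 0.45, and both IDH3A and PDHB by 0.41, and none passed. The glycolytic score minus the cycle score averaged -0.12 ± 0.19 in magnocellular (n = 4) and 0.06 ± 0.09 in parvocellular samples (SD, n = 8), and the ranges overlapped. Oligodendrocyte markers had a median log2 change of -0.46, with 2 of 23 probe sets past the threshold as lower. Neuron markers had a median of 0.03, with 2 of 20 probe sets past it as higher. Astrocyte markers split into 6 higher and 5 lower, with a median of 0.05 and 1 of 16 probe sets past it as lower. Over all probe sets 0.720% passed in either direction. The ACTB 3'/5' ratio averaged 46.4 ± 15.1 in magnocellular and 25.7 ± 8.78 in parvocellular samples. With that ratio as a covariate, 7 of 14 glycolytic genes were lower, and the log2 changes became 0.23 for MDH2, -0.28 for PDK2, -0.21 for GPI, -0.58 for OGDH and 0.60 for DLD, all with an adjusted p of 1. PDK2 changed by -0.49 without the deprived layer 2. The part of these in the member values was not tested. Of the 17 members with several probe sets, 10 had the same sign in all, and IDH3B, MDH2, PDHB, PDK2, PGK1, PKM and TPI1 did not.

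For hemisphere, 1 member passed: PFKP fell in ipsilateral against contralateral samples. Over all probe sets 0.108% passed, and 0.0991% passed as lower. Its level ranged from 6185 to 13594 in ipsilateral samples, with a median of 7586, and from 12479 to 22039 in contralateral samples, with a median of 13941. Apart from the ipsilateral non-deprived layer 6, every ipsilateral sample lay below every contralateral one. The means were 8305 ± 2724 in ipsilateral and 16019 ± 4339 in contralateral samples (SD, n = 6 each), a fold of 0.514 and a log2 change of -0.96 ± 0.18 (adjusted p = 0.0493). This call stood just inside the threshold and was lost in most alternatives. Its change was -0.77 (adjusted p = 0.873) with the GAPDH ratio as a covariate, which was higher ipsilaterally, and no member passed in 11 of the 12 fits that left out 1 array.

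The other members also tended to lower ipsilateral estimates, with 31 of 38 lower and a median log2 change of -0.21, beside 42.2% lower and 0.06 over all genes. At an unadjusted p under 0.05, limma gave 20 of 60 member probe sets lower and 6 higher, against 7.13% and 13.0% over all probe sets. Among the 1822 brightest genes, 26 of 29 members were lower, with a median of -0.24, beside 68.9% and -0.12 over all genes there. The glycolytic and cycle genes had medians of -0.31 and -0.20, with 12 of 14 and 7 of 10 lower. Without ENO2, 9 of 10 neuron markers were lower ipsilaterally, with a median of -0.07. All 6 measured microglia markers were higher (median 0.35), as were 10 of 13 oligodendrocyte markers (0.11) and 7 of 9 endothelial and mural markers (0.12). Of 11 astrocyte markers 6 were lower and 5 higher, with a median of -0.01. None of these markers passed, and their part in the member values was not tested.

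IDH3B ranged from 5886 to 11620 in ipsilateral samples (median 8771) and from 9626 to 17848 in contralateral samples (median 12095), a log2 change of -0.61 ± 0.15 (adjusted p = 0.1). Its other two probe sets changed by -0.71 and -0.57. PFKM, the muscle form of phosphofructokinase, ranged from 12675 to 20106 in ipsilateral samples (median 15134) and from 18786 to 23058 in contralateral samples (median 20379), a log2 change of -0.41 ± 0.12 (adjusted p = 0.122). For PFKM the ipsilateral non-deprived layer 6 alone reached into the contralateral range, and for IDH3B the ipsilateral non-deprived layers 1 and 6 did.

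GOT1 averaged 12232 ± 3255 in ipsilateral and 16546 ± 2606 in contralateral samples, a log2 change of -0.47 ± 0.14 (adjusted p = 0.125). CS was among the few higher members, at 8873 to 13065 in ipsilateral samples (median 9860) and 5194 to 10376 in contralateral samples (median 6756), a log2 change of 0.51 ± 0.15 (adjusted p = 0.125). PKM was higher too, by 0.57 ± 0.24, and by 0.88 ± 0.25 in its other probe set, the only one of 60 member probe sets (1.67%, beside 1.29% over all) whose ipsilateral and contralateral samples did not overlap. All 4 PGK1 probe sets were lower, by -1.09 to -0.31, and DLD changed by -0.67. Of the 17 members with several tested probe sets, 10 had the same hemisphere sign in all of them. DLAT, ENO1, IDH2, IDH3G, MDH2, PDHA1 and PFKL did not. IDH3G, for one, changed by -0.40 and its other probe set by 0.47. With the probe sets of a gene averaged, 27 of 38 members and 5 of 10 cycle genes were lower. When the GAPDH ratio entered the fit, the hemisphere changes became -0.27 for PFKM, -0.27 for GOT1 and 0.32 for CS, all with an adjusted p of 0.873. No member probe set separated deprived from non-deprived samples (0.684% over all) or magnocellular from parvocellular samples (1.50% over all).

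**Figure D5:**
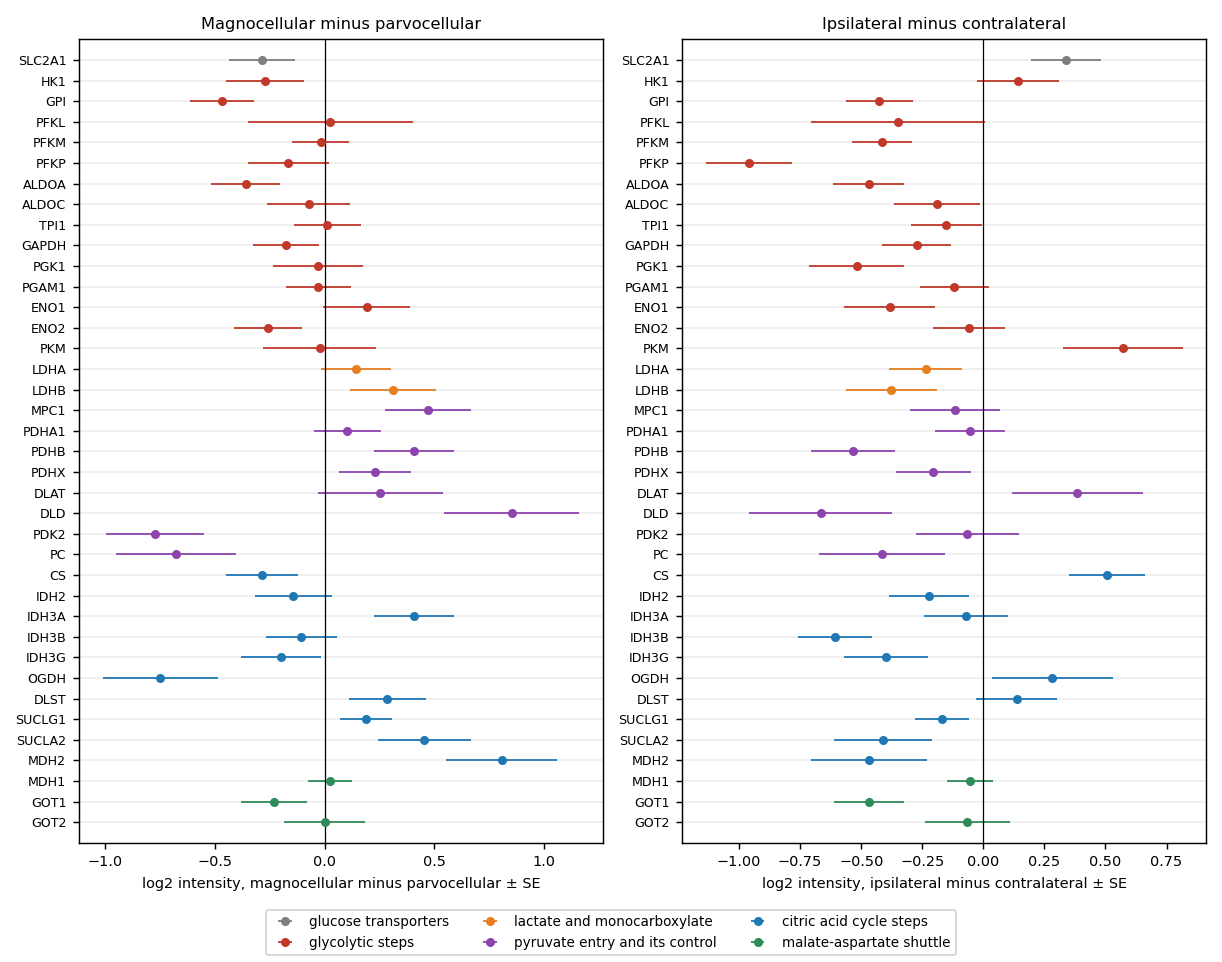
Log2 change (horizontal axes) for the 38 members, coloured by role, magnocellular against parvocellular and ipsilateral against contralateral, with error bars of 1 standard error. Of the members 20 lie below 0 for cell class and 31 for hemisphere, where PFKP at -0.96 is the only one past the threshold.

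The remaining genes of these pathways gave no call either. Of 86 further genes in 7 lists, 53 were tested, and 0 passed for deprivation, cell class or hemisphere by limma, where 10, 12 and 4 had an unadjusted p under 0.05. Over all probe sets, rather than genes, the share was 6.07% lower and 5.93% higher for deprivation. It was 14.6% in either direction for cell class and 20.1% for hemisphere. Beside these shares, 4 of 53 lay below for hemisphere, while 10 of 53 for deprivation and 12 of 53 for cell class lay above. With deprivation, 34 of the 53 (64.2%) were lower, with a median of -0.10. The smallest p was that of ME3, a mitochondrial malic enzyme, with a log2 change of -0.58 ± 0.13 (adjusted p = 0.116). MPC2, the partner of MPC1 in the pyruvate carrier, changed by -0.54. SDHA, the flavoprotein of succinate dehydrogenase, changed by -0.46, and ESRRG, a nuclear receptor that acts on genes of oxidative metabolism, by -0.56. Of the 15 further cycle and anaplerosis genes tested, 8 were lower and 7 higher, up to 0.65 for SUCLG2. For cell class, PRKAB1, a subunit of AMP-activated kinase, changed by -1.05 (adjusted p = 0.0996) and GBE1, the glycogen branching enzyme, by 0.91 (adjusted p = 0.133). For hemisphere, PHKB, a subunit of phosphorylase kinase, changed by -0.71 (adjusted p = 0.101).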

How the data were processed

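The deposited table, with 1 scaled intensity per probe set and array on a linear scale, held 22283 probe sets and 12 arrays. Which program made the deposited intensities is not given in the sources used here. Means of the authors' values after 2% trimming were equal to within 0.01%, so they were used as deposited. Macaque RNA was bound to human probes, so levels were compared within a probe set only, and precision is limited by how few arrays there are. Of 22215 probe sets other than 68 controls, 19065 named 1 gene in the platform annotation, 1043 several and 2107 none, and genes were named only from the first kind.

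Values were floored at the 20th percentile over all arrays (110.8; 0.068% of tested values lay below it) before log2 was taken. The 11105 probe sets at or above the median mean log2 value were fitted with limma 3.58.1 in R 4.3.3 (lmFit, eBayes with a trend). Deprivation, cell class and hemisphere were additive, with 8 residual degrees of freedom, and each interaction was added in turn. Tests were two-sided with Benjamini-Hochberg adjustment over all probe sets and a threshold of 0.05. Lists used the brightest tested probe set of each gene, 7285 genes in all.

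Members, roles, marker lists and further pathway genes were chosen with earlier results of these data known. The named genes were members past the threshold and the 5 of smallest p for deprivation, cell class and hemisphere. Genes of the further lists were mostly named from the 2 of smallest p per list and comparison, and not all of these are given. Other members named beside these were chosen after their values were seen. On 10 simulated sets for deprivation, with 200 changed of 11105 probe sets, the share called was 9% for a log2 change of 0.5, 64% for 1, 90.2% for 1.5 and 96.4% for 2, and false calls made up 4.96%. The simulated noise was independent between probe sets, so deviations shared by a whole array were not part of it. The alternatives changed the design terms, the normalization, the filter, the floor, the trend, the weights, RNA quality covariates, the probe set rule and the samples. No sequences are shown, since none were in the tables used here.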

Additional observations from a re-analysis of the deposited data

Results flagged for a closer look

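Each measured member was screened for a sample far from the rest of its group, by Dixon's ratio at the 95% level, in the groups of deprivation, cell class and hemisphere. Of 228 groups 14 (6.14%) held such a sample, and chance gives about 5%. The values are scaled intensities, and no explanation was tested.

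In the deprived layer 2, ALDOC, the brain aldolase, was at 20535, with the next deprived sample at 38622, and GAPDH was at 34756, with the next at 55345. In the same array ENO2 was at 42550, with the next ipsilateral sample at 72002, and IDH3B was at 5886, with the next magnocellular sample at 11620. This array had the lowest correlation with the others and a GAPDH 3'/5' ratio of 9.38. In the deprived layer 5, with a ratio of 11.0, MPC1 was at 2009, with the next sample at 3737 both among deprived and among parvocellular samples. In the deprived layer 6, LDHB was at 26601, with the next contralateral sample at 43046.

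Among non-deprived samples, GAPDH was lowest in layer 6, at 54029, with the next non-deprived sample at 76084. In layer 4, PGK1 was at 11732, with the next parvocellular sample at 20788, and LDHB was at 21203, with the next non-deprived sample at 43485. In layer 3, ENO1 was at 14666, with the next contralateral sample at 20184. In layer 5, DLST was at 1016, with the next contralateral sample at 1360. Only in the non-deprived layer 1 were such samples high: IDH3A was at 11309, with the next ipsilateral sample at 6114, and OGDH was at 856, with the next magnocellular sample at 410.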

How the results depend on the processing

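The members were lower in deprived samples in 26 (without layers 5 and 6) to 36 (median centring) of 38 under the alternatives with all members tested, and the deprivation medians of the glycolytic and cycle genes stayed below 0 in all of them. With the layer number as a replicate block, the deprivation medians were the same (-0.34 and -0.157), no member passed, and PFKP had an adjusted p of 0.0694 for hemisphere. Same-numbered samples lie in opposite hemispheres, and their deviations from the group means correlated at -0.25 to -0.00159. The hemisphere change entered these deviations with opposite signs, so the correlations cannot decide whether the numbers pair the samples. The block fit gives no value for cell class. The count of members past the threshold for deprivation, 0, became 2 with array weights (ALDOA and TPI1, with 162 instead of 7 calls over all probe sets), and 0 to 1 when 1 array was left out (ALDOA without the deprived layer 5, adjusted p = 0.0466). That for cell class, 0, became 1 with array weights and 1 with contralateral samples alone (DLD in both), and 0 to 1 when 1 array was left out (MDH2 without the deprived layer 4). That for hemisphere, 1, became 0 with the block, no cell class term, quantile normalization, no filter, no trend, the GAPDH or ACTB ratio as a covariate, without the 2 arrays of highest GAPDH ratio, with parvocellular layers alone and without layers 5 and 6. It became 3 with median centring (56 instead of 12 calls over all probe sets), 5 with array weights, and 0 to 8 when 1 array was left out. It was 0 when any of the other 11 arrays was left out, whereas leaving out the non-deprived layer 6 gave 8 members and 851 calls over all probe sets. The glycolytic median for deprivation was -0.241 with quantile normalization, -0.476 with median centring and -0.228 with parvocellular layers alone. The cycle median, -0.157, was -0.294 with median centring, -0.292 with ipsilateral samples alone and -0.0354 with contralateral samples alone. The glycolytic minus cycle median for deprivation, -0.182, was -0.0237 with ipsilateral samples alone and -0.288 with contralateral samples alone. It was -0.266 to -0.0625 when 1 array was left out. For cell class, the cycle median was 0.189 with the filter at the 70th percentile and -0.0337 to 0.148 when 1 array was left out. The glycolytic minus cycle median, -0.0928, was -0.262 with that filter, -0.247 with ipsilateral samples alone, -0.227 without layers 5 and 6 and -0.286 to -0.0902 when 1 array was left out. For hemisphere, the glycolytic median, -0.311, was -0.628 with median centring, -0.205 with array weights, -0.207 without the 2 arrays, -0.176 without layers 5 and 6 and -0.366 to -0.212 when 1 array was left out. The cycle median, -0.196, was -0.0242 with quantile normalization, -0.514 with median centring and -0.00104 with the probe sets of a gene averaged. The glycolytic minus cycle median, -0.115, was 0.0234 without layers 5 and 6 and -0.237 with that average. Median centring moved the median of all genes to -0.114 for deprivation and -0.253 for hemisphere. The cause of these changes was not tested.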
